A study of Mus musculus with 12 samples.

Results

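Open chromatin far from any protein-coding gene was followed through the loss and return of Hoxa9 activity in a murine myeloid progenitor line. The regions described here overlap no protein-coding gene of GRCm38, and their midpoint lies more than 50 kb from the start and the end of every such gene. They numbered 1222 of the 16028 regions in the union of 6 ATAC-seq peak lists. The cells, ER-Hoxa9-Lys-GFP of strain C57BL/6, express Hoxa9 fused to the estrogen receptor, so that Hoxa9 acts only while estradiol (E2) is in the medium, and carry a GFP reporter for lysozyme. All groups carried both and grew in medium with stem cell factor. One group stayed in E2. Another spent 120 h without it. The other 4 groups lost E2 for 24, 40, 56 or 72 h and then got it back for 96, 80, 64 or 48 h. Each is named here by its hours of withdrawal. As withdrawal lengthened, add-back shortened, so effects of these 2 durations cannot be told apart. Each add-back list was made after E2 had returned, so calls ordered by withdrawal are not a time course of closing or opening.

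ATAC-seq cuts DNA where nucleosomes are absent or loose, and a peak list records where such cuts pile up. Far from genes, open sites are most often enhancers, insulator sites or starts of non-coding genes. Enhancers can act over long distances, and a flanking gene need not be the target. Hoxa9 is a homeobox factor that keeps myeloid progenitors immature, largely by binding enhancers together with Meis, Pbx, Runx, Pu.1 and C/EBP factors.

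Each of the 6 groups had 2 libraries and 1 deposited list without a score or count, so depth is unknown and no spread between libraries could be computed. Per the labels the nuclei of 1 preparation were split for 2 transpositions, so both libraries of a group may be technical repeats. All intervals in brackets are 95% intervals for counting error over regions, and they say nothing of the spread between cultures. For changes between lists they treat the 2 shares as independent, though both come from the same regions. After cleaning, the lists held 7987 to 13165 peaks, the most in continuous E2 and the fewest at 120 h. A peak lay at a boundary of 6 of 10 myeloid progenitor marker genes in E2 (Kit, Cd34, Flt3, Mpo, Spi1 and Cebpa) and of 1 of 10, Spi1, at 120 h. Boundaries of markers of other cells had a peak for 1 of 14 genes, Klf1, in the lists at 0, 24 and 40 h and for 0 of 14 in the later lists.

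Within 10 kb of one of the remote regions lay 11 microRNA genes, and all 11 matched RefSeq's microRNA sequences (GRCm38). Of the mature forms of the Mir17 cluster and of Mir101a, 1 per gene is shown, because a kept region sits beside the first and a region called in E2 alone beside the second. Sequences run 5′ to 3′, and capitals mark the seed, bases 2 to 8, through which a microRNA pairs with its targets.
miR-17-5p: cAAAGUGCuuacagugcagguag
miR-20a-5p: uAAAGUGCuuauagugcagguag
miR-18a-5p: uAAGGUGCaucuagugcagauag
miR-19a-3p: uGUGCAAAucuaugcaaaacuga
miR-19b-3p: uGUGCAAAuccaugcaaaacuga
miR-92a-3p: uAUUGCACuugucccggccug
miR-101a-3p: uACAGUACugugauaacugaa
The first pair share 1 seed, and the miR-19 forms share another. The 6 genes of the Mir17 cluster, which promotes growth in blood cells, lie 987 to 1743 bases from the region chr14:115040310-115042684. That region was 2375 bases wide in E2, had no peak at 24 or 40 h, and was 952, 947 and 688 bases wide at 56, 72 and 120 h. It was thus absent from both lists with the longest add-back, though present in continuous E2. Mir101a lies 9.03 kb from chr4:101356054-101357752, a region of 1699 bases called in E2 and in no other list. Regions beside Mir6380 and Gm51286 were likewise called in E2 alone, one beside Mir6354 at 0, 24 and 40 h, and one beside Mir6363 in every list.

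Promoter windows of RefSeq (GRCm38), from 250 bases before to 50 after a gene's start, overlapped the remote regions for 57 non-coding genes. Windows of 6 are printed to show sequences at regions called throughout, in E2 alone or at 120 h alone. They were chosen after their calls were seen. Capitals mark matches on either strand to any of 10 motifs. Core promoter elements were searched first, the TATA box as TATAAA and the CCAAT box by the letters of its name. For ETS factors the core was CGGAAG. The longer motif of PU.1, itself an ETS factor, was GAGGAAGT, and its central letters overlap that core. C/EBP factors were searched as TTGCNNAA, where N is any base. The AP-1 motif was TGANTCA. For Hoxa9 partners, the MEIS core was TGACAG and the joint HOX-PBX motif was TGATTTAT. RUNX factors were searched as TGTGGT. The last was the E-box, CACGTG.
Dleu2: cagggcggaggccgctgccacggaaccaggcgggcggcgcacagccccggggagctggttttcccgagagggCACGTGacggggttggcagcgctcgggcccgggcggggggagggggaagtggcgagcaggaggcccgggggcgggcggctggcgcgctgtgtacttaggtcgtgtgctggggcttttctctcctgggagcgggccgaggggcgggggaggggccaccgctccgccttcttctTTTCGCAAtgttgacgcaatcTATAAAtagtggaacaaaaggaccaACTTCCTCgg
Mirt1: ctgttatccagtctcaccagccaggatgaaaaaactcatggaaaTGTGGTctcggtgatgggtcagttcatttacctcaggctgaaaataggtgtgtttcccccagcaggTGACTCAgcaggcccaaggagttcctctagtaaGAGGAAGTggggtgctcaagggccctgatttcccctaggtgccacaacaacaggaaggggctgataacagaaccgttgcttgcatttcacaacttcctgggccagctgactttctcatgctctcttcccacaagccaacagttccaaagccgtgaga
Ptgs2os2: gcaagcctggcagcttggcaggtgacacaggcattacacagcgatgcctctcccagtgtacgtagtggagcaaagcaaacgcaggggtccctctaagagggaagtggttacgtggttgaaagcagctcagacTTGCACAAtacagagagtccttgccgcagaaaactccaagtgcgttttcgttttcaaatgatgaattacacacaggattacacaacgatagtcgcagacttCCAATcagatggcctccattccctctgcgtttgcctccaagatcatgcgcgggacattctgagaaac
E130102H24Rik: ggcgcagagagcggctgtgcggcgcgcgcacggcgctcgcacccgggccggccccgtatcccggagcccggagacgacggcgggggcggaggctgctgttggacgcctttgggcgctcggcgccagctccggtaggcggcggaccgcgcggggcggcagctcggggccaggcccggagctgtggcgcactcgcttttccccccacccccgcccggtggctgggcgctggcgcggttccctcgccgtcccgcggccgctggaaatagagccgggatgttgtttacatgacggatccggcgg
Gm31814: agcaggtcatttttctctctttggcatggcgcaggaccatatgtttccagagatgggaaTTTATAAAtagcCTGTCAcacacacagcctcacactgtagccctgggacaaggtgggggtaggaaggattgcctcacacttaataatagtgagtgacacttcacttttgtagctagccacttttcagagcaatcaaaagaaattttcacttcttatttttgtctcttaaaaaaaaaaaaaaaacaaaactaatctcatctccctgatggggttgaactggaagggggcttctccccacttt
A130077B15Rik: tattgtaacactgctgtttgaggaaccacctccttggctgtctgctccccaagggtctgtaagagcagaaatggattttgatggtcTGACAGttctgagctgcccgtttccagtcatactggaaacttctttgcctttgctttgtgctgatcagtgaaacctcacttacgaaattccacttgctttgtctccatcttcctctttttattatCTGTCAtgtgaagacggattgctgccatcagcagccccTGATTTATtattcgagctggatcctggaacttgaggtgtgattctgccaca
The windows of Dleu2 at chr14:61682324-61682623 (- strand), Mirt1 at chr19:53464747-53465046 (- strand) and Ptgs2os2 at chr1:150164899-150165198 (- strand) lay in regions called in every list and hold 29, 3 and 12 CG pairs. E130102H24Rik at chr4:101356199-101356498 (- strand) is the start that the E2-only region beside Mir101a covers. It holds 47 CG pairs in 300 bases, where the median window in a lost region held 7, and none of the 10 motifs. Gm31814 at chr16:24193913-24194212 (- strand) and A130077B15Rik at chr10:122569842-122570141 (- strand) overlap regions called at 120 h alone and hold 1 and 4 CG pairs. The first has overlapping TATAAA matches on both strands, and the second has TGACAG on each strand and 1 TGATTTAT. The region covers 168 of the 300 bases of the Gm31814 window, at its downstream end. Read in the direction of the gene, the marked matches of that window all lie upstream of the region.

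Between continuous E2 and 120 h without it, most remote regions lost their peak in the lists as deposited. The lists shrink from 13165 to 7987 peaks, and when each was reduced to its 7987 widest peaks they gave a lost share of 31.3% (28.1 to 34.7) and a gained share of 35% (31.7 to 38.5). A region was termed lost when called in E2 and not at 120 h, gained when called at 120 h and not in E2, kept when called in both, and in neither when only add-back lists held it. Of the 1222 regions, 714 were lost (58.4%, 55.6 to 61.2), against a background of 41.6% over all 16028 regions. Gained regions numbered 128 (10.5%, 8.88 to 12.3, background 9.15%). Kept regions numbered 229 (18.7%, 16.7 to 21, background 40.6%), and 151 were in neither end point (12.4%, background 8.71%). The remote share of called regions fell from 7.16% (6.73 to 7.62) in E2 to 4.48% (4.05 to 4.96) at 120 h. By list, 943, 712, 507, 409, 413 and 357 remote regions were called at 0, 24, 40, 56, 72 and 120 h, where 82.1%, 71.4%, 61.9%, 55.9%, 59.5% and 49.7% of all regions were called.

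Loss was more frequent than at gene boundaries. The lost share was 18.2 percentage points above that of all other regions (15.4 to 21.1), or 7.51 points (4.23 to 11) with lists of equal length, and 32.7 points above that of regions within 1 kb of a gene boundary (29.8 to 35.6). Against 2604 regions between genes but within 50 kb it differed by 1.67 points (-1.7 to 5), and against 4255 regions inside genes by 1.32 points (-1.83 to 4.43). Both of these intervals include 0. The first depends on the limit of 50 kb, being 3.95 points (0.801 to 7.1) at 20 kb and -4.35 points (-8.41 to -0.308) at 100 kb. The kept share minus that of regions inside genes was -3.09 points (-5.54 to -0.505), and it differed by 0.268 points from that between genes within 50 kb (-2.32 to 2.97). Gained regions were rarer among the remote than between genes within 50 kb, with a difference of -3.39 points (-5.5 to -1.15), but with lists of equal length this difference was -0.533 points (-4.57 to 3.59).

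**Figure D1:**
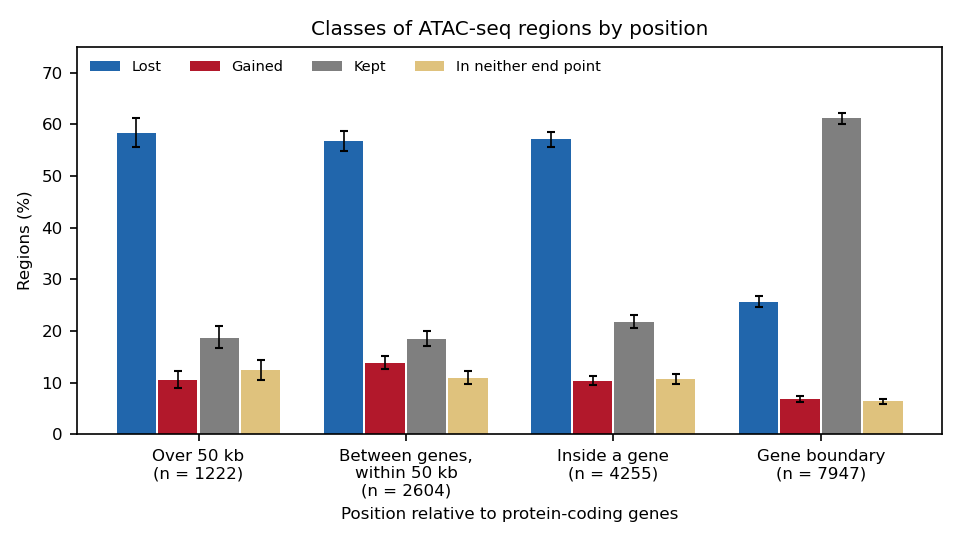
Share of regions (y axis, percent) that were lost, gained, kept or in neither end point, by position relative to protein-coding genes (x axis). Bars are shares and error bars 95% Wilson intervals over regions; remote regions resemble the other regions away from gene boundaries in their lost share (58.4% against 56.8% and 57.1%), while 25.7% of boundary regions were lost.

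The lost share was also compared at matched widths. In the narrowest of 5 width classes of E2 peaks, 276 of 351 remote regions were lost (78.6%, 74 to 82.6), and in the widest 54 of 78 (69.2%, 58.3 to 78.4). Regions between genes within 50 kb gave 83.4% and 66.8% in these classes, and regions inside genes 83.1% and 59.3%. Over the 5 classes the remote share minus that between genes ran from -4.8 to 4.47 points, and minus that inside genes from -4.51 in the narrowest to 9.96 points in the widest (-1.93 to 20.3). The interval included 0 in each of these comparisons. For boundary regions of the narrowest and widest classes the lost share was 58.0% and 27.2%.

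Fewer of the lost remote regions were called in an add-back list the longer E2 had been away. Of the 714, 427 were called at 24 h (59.8%, 56.2 to 63.3), 228 at 40 h (31.9%), 125 at 56 h (17.5%) and 98 at 72 h (13.7%, 11.4 to 16.4). The background over all lost regions was 63.2%, 42.5%, 27.0% and 26.9%. From 24 to 72 h the share dropped by 46.1 points (-50.3 to -41.5). Most of that lay before 56 h, and the step from 56 to 72 h was -3.78 points (-7.55 to -0.0115). The upper limit is close to no change, and the interval does not use the pairing of regions.

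Gained remote regions went the other way, with 15, 28, 42 and 65 of 128 called at 24, 40, 56 and 72 h. These are 11.7%, 21.9%, 32.8% and 50.8%, where all gained regions gave 30.5%, 39.7%, 47.6% and 64.1%. The rise from 24 to 72 h was 39.1 points (28.2 to 48.7), and 24.8 points (17.7 to 31.7) with lists of equal length. Kept regions were called in 84.3% to 87.8% of cases in these 4 lists (background 92.8%, 92.0%, 91.3% and 94.5%). The same was measured for regions between genes within 50 kb. The remote share minus theirs ranged from -1.69 to 2.35 points for lost regions, -4.35 to 2.06 points for gained and -1.48 to 4.03 points for kept, with intervals that all include 0. Regions in neither end point were called at 72 h less often when remote, by a difference of -11 points (-20.2 to -1.26). From 56 to 72 h, lost regions between genes moved by 0.135 points (-2.46 to 2.73) and kept ones by 7.69 points (3.08 to 12.3), where the kept remote ones moved by 2.18 points (-4.34 to 8.7). At gene boundaries the lost share called at 72 h was 51.2%, and the gained share called at 24 h was 56.1%.

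**Figure D2:**
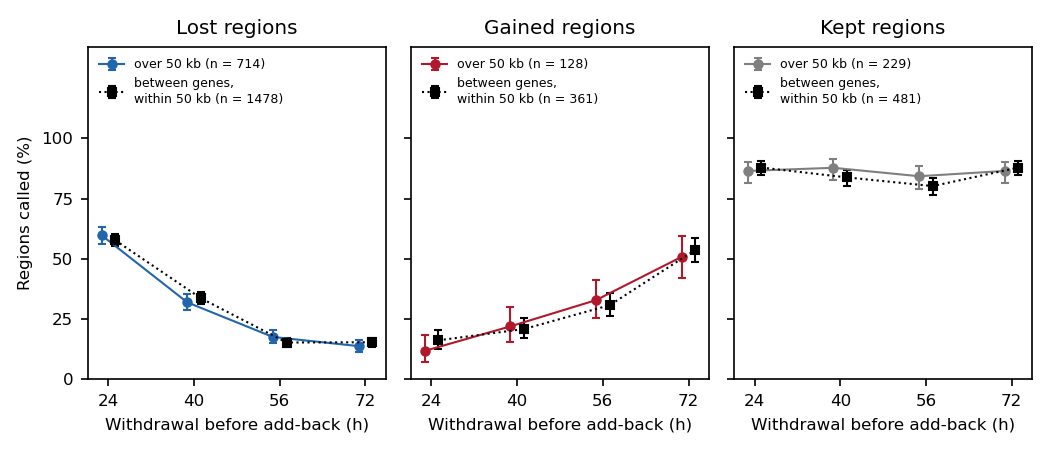
Percent of lost, gained and kept regions called (y axis) in each add-back list, by hours of E2 withdrawal (x axis), for remote regions (circles) and regions between genes within 50 kb (squares, dotted). Error bars are 95% Wilson intervals over regions; among remote regions calling of lost ones declines from 59.8% to 13.7%, calling of gained ones climbs from 11.7% to 50.8%, and both sets of regions overlap at each time.

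Along the order of withdrawal, 640 of 714 lost remote regions changed state once (89.6%, 87.2 to 91.7, background 84.2%) and so did 124 of 128 gained ones (96.9%, 92.2 to 98.8, background 87.2%). Between genes within 50 kb and inside genes, 88.4% and 87.8% of lost and 91.4% and 89.5% of gained regions changed state once. Of the lost ones with a single change, 251 were first absent from the list at 24 h, and 196, 102, 36 and 55 from those at 40, 56, 72 and 120 h. Of the gained ones with a single change, 61 were called at 120 h alone, against 12, 16, 12 and 23 from 24, 40, 56 and 72 h on. Called in every list were 159 remote regions (13.0%, 11.2 to 15), against a background of 32.8%, but 12.3% between genes within 50 kb and 15.6% inside genes. Called in 1 list were 415 (34.0%, background 19.8%), made up of 251 in E2, 42 at 24 h, 17 at 40 h, 17 at 56 h, 27 at 72 h and 61 at 120 h. This share was 33.5% between genes within 50 kb and 31.7% inside genes.

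Gaps flanked by progenitor and Hoxa9-associated genes held 32 remote regions, beside 14 of 35 genes of the list. Lost were 28 (87.5%, 71.9 to 95), against 58.4% of all remote regions; 1 was gained, 1 kept and 2 were in neither. They were called in 29, 22, 14, 9, 9 and 2 instances at 0, 24, 40, 56, 72 and 120 h. The median region was called in 2 lists, as over all remote regions. A gap also borders a second gene, and which gene a region acts on is unknown here. This list and those below were chosen with earlier results of these data known, so their shares are no independent support. Regions that share a gap enter the intervals as if they were independent.

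Receptors and signal molecules came first in that list. Kit, the stem cell factor receptor, had 5 remote regions in its flanking gaps. At 73.5 kb one was called at 0 to 72 h, those at 169 and 173 kb at 0, 24 and 40 h, and that at 135 kb in E2 alone. On the other side of the gene, at 192 kb, a region was called at 56, 72 and 120 h and not before, so the gaps of Kit hold both directions. Cd34, a progenitor surface protein, had lost regions at 52.7 and 58.5 kb. Trib2, a pseudokinase that Hoxa9 and Meis1 activate in leukemia, had 3 lost regions at 191, 276 and 369 kb, called at most up to 24 h. Cdk6, a cell cycle kinase, had 3 lost regions, of which those at 142 and 188 kb were called in every list but that at 120 h.

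Among the transcription factors, the gap beyond Myc, a growth regulator, is known to hold distant enhancers used by blood progenitors. In it 5 remote regions lay between 1621 and 1714 kb from Myc, and their calls differed. The nearest was called at 0 and 24 h, the next at 40 and 56 h, the third at 0 to 72 h, the fourth in E2 alone, and the farthest, chr15:63704357-63705356, in every list. Runx1, a master factor of blood formation, had 3 lost regions at 57.6, 225 and 327 kb, none called after 24 h. Runx2 and Runx3 had 1 lost region each, at 62.7 and 50.4 kb. Myb, a progenitor factor, had 1 at 67.6 kb that was called at 0 to 56 h. Mycn, a relative of Myc, had 2 lost regions, at 355 and 439 kb. Sox4 had 1 lost region and 1 called at 72 h alone, and Ikzf2 and Erg had 1 lost region each.

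Gaps flanked by myeloid and inducible transcription factor genes held 60 remote regions beside 17 of 42 genes, with a different mix. Lost were 28 (46.7%, 34.6 to 59.1), gained 12 (20%, 11.8 to 31.8, against 10.5% of all remote regions), kept 11 and in neither 9. Calls numbered 39 in E2, fell to 15 at 72 h, and stood at 23 at 120 h. Jun, a subunit of AP-1, had 5 remote regions. At 53.4 kb one was called in every list, and at 109, 163 and 178 kb regions were called in each list from 24, 40 and 72 h up to 120 h. The last, at 365 kb, was called at 0 and 24 h. The one at 109 kb, chr4:95161080-95162686, overlaps the lncRNA Junos, was the widest gained remote region (1607 bases) and was 1607, 681, 558, 667 and 1499 bases wide at 24, 40, 56, 72 and 120 h.

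Cebpb, a C/EBP factor of late granulocytes and of stress responses, had 7 remote regions within 163 kb. Gained ones lay at 69.5 kb (called at 24, 72 and 120 h) and 84.8 kb (72 and 120 h). Lost ones lay at 74.7 and 163 kb, a kept one at 63.2 kb, and those at 87 and 114 kb were called at 56 h and 24 h alone. Id2, an inhibitor of E-proteins, also had 7, with 4 lost, and Maf, a macrophage factor, 7 with 4 lost and 2 gained. Of 6 at Klf4, a monocyte factor, 2 were lost and 1, at 283 kb, was gained at 120 h alone. Zeb2, a repressor in myeloid and lymphoid cells, had a region at 162 kb called in every list. Bcl6, a repressor, had 2 regions called at 0, 24, 40 and 120 h but not at 56 or 72 h, and the gained region at 205 kb that overlaps the Gm31814 window printed above. Ets2, an ETS factor, had 3 lost regions, 1 of them in the gap it shares with Erg, and Ets1 and Tox had 2 lost each. Klf6 had 2 lost and 1 gained, Satb1 1 lost and 2 kept, and Fos 1 lost and 1 in neither. Tfec had 1 lost, Nr4a2 1 gained and Mef2c 1 kept.

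**Figure D3:**
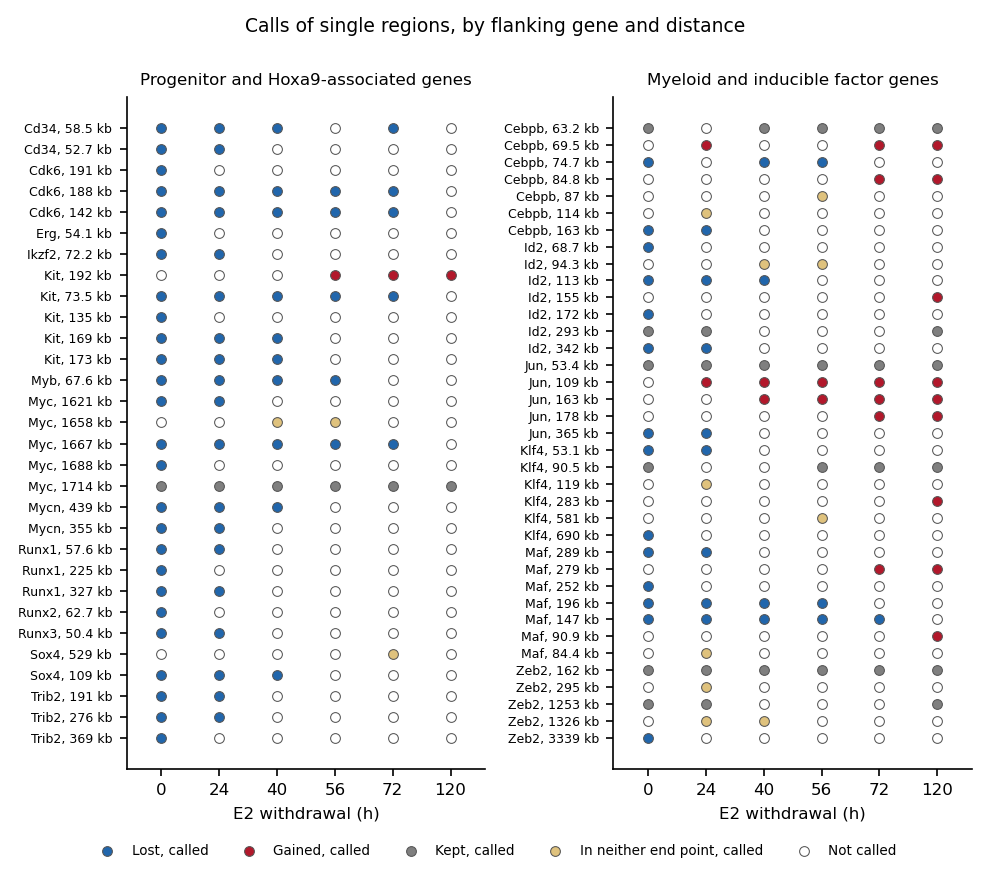
Each row is a remote region, labelled by a flanking gene and its distance to that gene, and each column (x axis) a peak list by hours of E2 withdrawal. Filled circles are calls, coloured by class, and not every gene of the lists is drawn; beside the progenitor genes nearly all rows are lost regions, while 3 of the 5 rows at Jun are gained and those at Cebpb hold 3 calls both in E2 and at 120 h.

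Neutrophil and phagocyte genes had few remote neighbours, 9 regions beside 4 of 38 genes, with 5 lost, 2 gained and 2 kept. Csf3r, the G-CSF receptor, had a lost region at 93.6 kb called at 0 and 24 h. Cxcr4, which holds neutrophils in the marrow, had 5 regions from 120 to 515 kb, of which 3 were lost, 1 gained at 120 h alone and 1 kept. Beside Ptgs2, a prostaglandin synthase, the region over the Ptgs2os2 start at 56.6 kb was called in every list. The lymphoid list gave 6 regions beside Foxo1 (4 lost) and Ebf1 (1 lost, 1 kept). Developmental factor genes outside blood gave 29 beside 15 of 38 genes, with 17 lost (58.6%), 1 gained, 6 kept and 5 in neither. Sox9, a factor of cartilage and gonads, had 5 of them from 228 to 385 kb, of which 4 were lost, and Sall3 had 6 from 60 to 893 kb, of which 4 were lost. Foxp2 had the gained one, at 132 kb, called from 40 h on. Cadherin and neuronal adhesion genes, which often border gene deserts, gave 50 beside 23 of 44 genes, with 30 lost (60%), 2 gained, 13 kept and 5 in neither. Among these, Pcdh10 and Pcdh18 had 3 regions each with 3 and 2 lost, and Cdh18 and Cntn5 had the gained ones, from 24 and 40 h on. Lost shares in these last 2 lists were near that of all remote regions, 58.4%. Their gained shares were 3.45% (0.611 to 17.2) and 4% (1.1 to 13.5), against 10.5%. Kept shares were 20.7% and 26%, against 18.7%.

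The remote regions were spread over 681 gaps between protein-coding genes. A single region lay in 416 gaps, and 36 gaps held 5 or more, with 220 regions among them. The 10 fullest gaps held 81, of which 41 were lost, 12 gained, 14 kept and 14 in neither. At the top were the gap from Irf2bp2 to Tomm20, with 10 regions in 337 kb (2 lost, 2 gained, 4 kept), and that from Adgrl2 to Adgrl4, with 10 in 2449 kb (8 lost, none gained). Lmo7 to Kctd12 had 8 (4 lost, 1 gained). Spring1 to Med13l had 8, with 3 lost and 3 gained. Adam6a to Zfp386, which spans immunoglobulin heavy chain segments, had 8, with 6 lost. The X-linked gap from Olfr1324 to Stk26 had 7 (4 lost, 2 kept), as had those at Id2, Cebpb and Maf, and so had the gap next in rank.

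Classes were also compared between neighbours. Joining remote regions less than 20 kb apart gave 119 groups of 2 or more, holding 264 regions, and 51 of these groups had a single class. Among the 101 pairs, 47 had 1 class in common (46.5%, 39 of them both lost) and 13 had identical calls in all 6 lists. Of all remote regions 58.4% were lost, and how often unrelated pairs share a class was not tested. The largest group, 6 regions over 44.7 kb between Olfr1324 and Stk26, had 3 lost, 2 kept and 1 in neither. The next, 5 regions over 24.1 kb beside Cebpb, had calls in 2, 1, 2, 3, 3 and 3 regions at 0, 24, 40, 56, 72 and 120 h. The 4 regions over 26.9 kb between Gpr12 and Usp12 were called in none of the lists after 40 h. Of 4 regions between Spring1 and Med13l, 2 were lost and 2 gained. Between Mn1 and Cryba4 4 regions spanned 45 kb, with 3 lost and 1 kept.

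The widest lost remote regions lay beside Commd3, Tpcn2, Tab2 and Ccdc54. The widest, chr2:18585649-18587685, covers the asparagine tRNA gene n-TNgtt9. It was 2028, 1254 and 717 bases wide at 0, 24 and 40 h and had no peak in the other lists. A second, 1815 bases wide, lay 20251 bases from that tRNA gene and was called in E2 alone. Beside Tpcn2 and Ccnd1, a cyclin, a region was 1851, 1844 and 1101 bases wide at 0, 24 and 56 h. After the region at Jun, the widest gained ones lay between Cd44 and Pdhx (1283 bases, 120 h alone) and beside Zfat (1223 bases, from 24 h on), Brinp3 and Fzd1 (1002 and 909 bases, 120 h alone). The widest kept ones included the region beside Mir17, that over Dleu2, and one at Setbp1 that went from 2766 bases in E2 to 1124 bases at 120 h. Of the 5 widest in neither end point, 3 were called at 40 h alone, at Sall3 (1620 bases), Klf14 (1465 bases) and Tcte2 (1171 bases), and those at Ppara and Galr1 at 40 h and 1 other list.

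Non-coding genes overlapped 343 of the 1222 regions (28.1%, 25.6 to 30.7), of which 304 touched a lncRNA, 21 a pseudogene and 2 a tRNA gene. No region overlapped a microRNA, rRNA or snRNA gene; taking 3 counts as what a count of 0 allows, 0 of 1222 permits a share of up to 0.245%. Those within 1 kb of a non-coding gene's start or end, 135, were lost in 60% of cases, 1.77 points from the other remote regions (-7.15 to 10.2). Called in every list were regions at the starts or ends of Dleu2, Mirt1, Ptgs2os2, Jpx (an activator of Xist), the tRNA gene n-TEttc7 and Rnls, and one 906 bases from an end of Xist. One region over Rn18s-rs5, an 18S ribosomal RNA pseudogene, was 3515, 3528 and 3256 bases wide at 0, 24 and 120 h. It had no peak at 40, 56 or 72 h. A second region over that pseudogene, chr17:39847510-39848767, was called at 0, 24, 56, 72 and 120 h. It was 625 and 626 bases wide at 56 and 72 h. Immunoglobulin and T cell receptor segments held 10 regions, of which 8 were lost, 1 was gained and 1 was in neither. Of all remote regions 58.4% were lost. None of the 10 was called at 72 h, where 413 of all 1222 remote regions and 13.7% of the lost ones were called. A region over Platr26, a lncRNA, was called at 0 and 24 h.

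Among the 57 promoter windows, 33 overlapped lost, 3 gained, 15 kept and 6 other regions. An overlap could be as short as 55 bases, so a match in a window need not lie in its region. Median CG pairs per window were 15 in kept, 7 in lost and 3 in gained regions, beside 24 for 998 non-coding windows in regions that were not remote and 7 for all 27025 genes in the table. The MEIS core TGACAG occurred in 21 of 57 windows (36.8%, 25.5 to 49.8), against 19.4% of all genes, 20.3% of the 9533 non-coding genes among them and 15% of the 998. The RUNX motif TGTGGT occurred in 20 (35.1%, 24 to 48.1), against 17.0%, 20% and 13.6% of the same sets, and 14 of the 20 windows overlapped lost regions. The PU.1 motif GAGGAAGT was in 7 windows (12.3%), against 3.29%, 3.42% and 3.71%. Both it and the RUNX motif were counted in the windows of Gm14321 and Gm32287, which overlap each other at 1 region. The C/EBP motif was in 19.3%, against 10.7%, 11.8% and 7.11%. AP-1 matches were in 14.0%, against 7.91%, 9.48% and 5.51%, and the E-box was in 15.8%, against 7.09%, 5.90% and 11.2%. The TATA box was in 15.8% (14.1%, 15.6% and 5.71%), the CCAAT box in 33.3% (37.8%, 35.6% and 32.8%) and the ETS core in 14.0% (17.1%, 9.29% and 29.1%). The HOX-PBX motif was in 2 windows, 3.51%, against 1.02%, 1.33% and 0.100%. Median GC was 51.0% in the 57 windows, 52.7% over all genes, 48.3% over non-coding genes and 63.3% in the 998, and the part of base composition in these shares was not tested. A match is a string of letters and not a bound site.

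Distance ran from 50082 to 2042236 bases, with a median of 118150. The lost share was 64.9% (60.6 to 68.9) at 50 to 100 kb, 56.0% at 100 to 250 kb, 48.3% at 250 to 500 kb and 52.4% (43.7 to 61) beyond. Beyond 250 kb the lost share minus that at 50 to 100 kb was -14.7 points (-21.8 to -7.41), while the kept share was 8.74 points higher (2.77 to 15). Without the 30 regions of steady width described next, all of which are kept by definition, these differences were -12.1 (-19.4 to -4.71) and 4.76 points (-0.947 to 10.9). Just inside the limit, regions 50082, 50105 and 50138 bases from Pou1f1, Rwdd3 and Rgs8 were all lost, and just outside it those at Gcnt1, Ddx3x and Kif16b (49986, 49973 and 49878 bases) were all kept. The farthest remote region, 2042 kb from Olfm4 towards Pcdh17, was called in every list. Next were a region between Pcdh7 and G6pd2 (1812 kb, every list) and one near Cntnap5a (1778 kb), called from 24 h on. Those near Cntnap5b (1765 kb, every list) and Pcdh9 (1731 kb, 72 h alone) followed. By chromosome, the remote share of regions ran from 3.51% on chromosome 11 to 12.5% on chromosome 3, leaving aside chromosome Y, whose 1 region was remote.

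**Figure D4:**
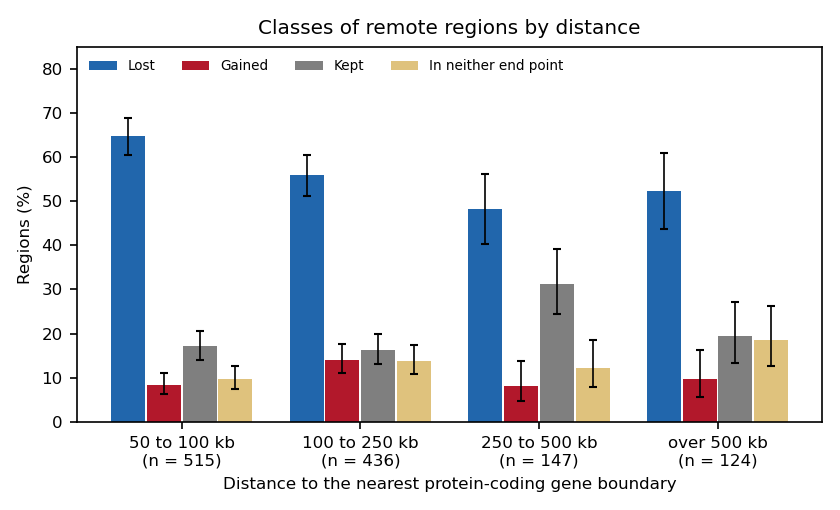
Share of remote regions (y axis, percent) in each class, by distance to the nearest start or end of a protein-coding gene (x axis). Bars are shares and error bars 95% Wilson intervals over regions; the lost share is 64.9% in the nearest group and 48.3% and 52.4% in the 2 farthest.

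Remote regions were narrow, with a median width of 628 bases against 838 for all others. Lost, gained, kept and other remote regions had medians of 661, 439, 722 and 474 bases. Even those called throughout were narrower in lists with longer withdrawal. The median of the 159 was 673, 627, 574, 523, 510 and 496 bases at 0, 24, 40, 56, 72 and 120 h. At 120 h 128 of the 159 were narrower than in E2 (80.5%, 73.7 to 85.9), against a background of 97.2%. This share minus that between genes within 50 kb was -10.2 points (-17.5 to -3.61). Without the regions of steady width described next, the shares were 89.9% and 92.5%, a difference of -2.56 points (-9.42 to 2.83). Also without them, the remote share minus that inside genes was -6.83 points (-13.3 to -2.41). Minus that at gene boundaries it was -8.74 points (-15.1 to -4.63).

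A small set of them kept the same width in all 6 lists. In 30 of the 159 (18.9%, 13.5 to 25.7) the widest and narrowest peak differed by at most 5% of the widest. The same held for 15 of 321 regions between genes within 50 kb (4.67%, 2.85 to 7.57), 19 of 665 inside genes (2.86%) and 7 of 4120 at boundaries (0.170%, 0.0823 to 0.35). Examples are chr14:19415766-19419448, with widths of 3629 to 3679 bases, chr2:98666251-98667312, with 1047 to 1061 bases, and chr11:45757113-45757692 in the gap beside Ebf1, with 579 bases in 5 lists and 580 at 120 h. Those beside Hand2, Cdh20 (2) and Nr2f1 that were called in every list are also among the 30. They made up 1.17% of remote regions at 50 to 100 kb and 6.45% beyond 500 kb, and 7 of 41 on chromosome X. The set was picked after widths were seen. All of it counts as kept by its definition, and it was not set against lists of repeats or of high-signal regions.

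**Figure D5:**
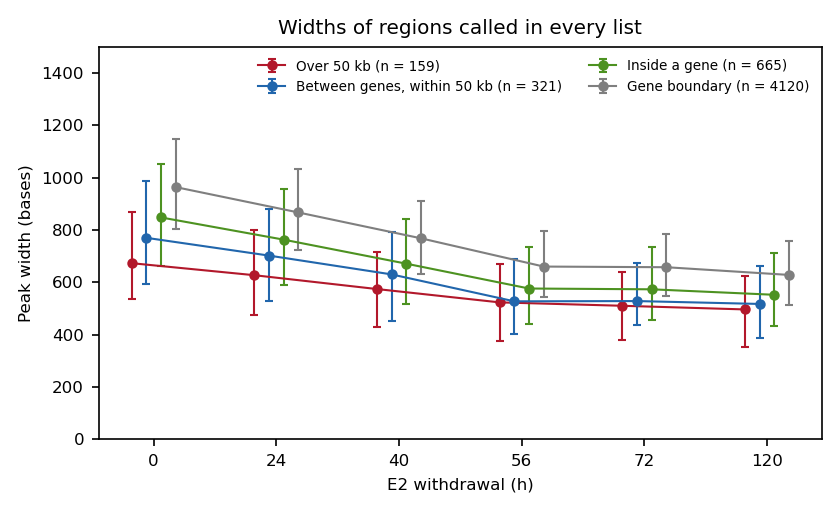
Peak width (y axis, bases) of regions called in every list, by hours of E2 withdrawal (x axis) and position. Points are medians and error bars the quartiles over regions; remote regions are the narrowest in E2 (673 bases) and differ least between E2 and 120 h (496 bases).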

How the data were processed

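ATAC-seq peak positions of 12 libraries in 6 groups of 2 were used, with 1 list per group. The files deposited by the authors hold chromosome, start and end, and no other value, such as a score or signal. The submitters' processing notes name BWA, MACS2 2.0 and STAR 2.5 and list mm9. How the 2 libraries were joined is not given in the sources used here. The positions follow GRCm38: 52.4% to 69.6% of peaks lay within 1 kb of a gene boundary, against 6.03% to 6.29% after a shift.

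Duplicate rows (115 to 2530 a list) and intervals over 10000 bases (1 to 16) were dropped and overlaps merged. Calls needed 1 shared base. Genes came from RefSeq's GRCm38 table, which gives no strand, so starts and ends were used alike. Shares have Wilson intervals and differences Newcombe intervals for independent shares, at 95%. With 1 list per group there is no test between samples. Members and gene lists were chosen with earlier results of these data known.

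Named were the 10 fullest gaps, the 5 widest regions of each class, up to 15 regions at non-coding genes, microRNAs within 10 kb, listed genes, the 5 farthest regions, 3 on each side of 50 kb and the 5 largest clusters. Some items taken by this rule are not reported here. Functions were tested on simulated data. Alternatives changed overlap, list length, width, chromosomes, distance and clustering. Python 3.11.15, numpy 2.4.6, pandas 2.3.3, scipy 1.17.1 and matplotlib 3.10.9 were used.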

Additional observations from a re-analysis of the deposited data

How the results depend on the processing

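Depth is not given in the sources used here, and each group had 1 list, so weak regions near a caller's threshold cannot be told apart from closed ones. Over 12 alternatives and 13 results, 125 of 153 values met the criterion for no change (same direction and side of 0, a share within its interval, or a count within 1.5 times), 16 moved, 7 differences came to exclude 0, 2 ceased to and 3 changed sign. The lost share minus that of all other regions (18.2 points) and the changes in calling from 24 to 72 h (-46.1 and 39.1 points) kept direction and an interval without 0 in each, though with lists of equal length they were 7.51, -39.1 and 24.8 points. The number of remote regions (1222) was 760 with lists of equal length, 375 with peaks at or above the median width, 2099 at 20 kb, 707 at 100 kb, and 677 when also over 10 kb from non-coding genes. The lost share was 62.6% with 50% reciprocal overlap, 31.3% with equal length, 54.9% with the median width and 53.7% at 100 kb. The gained share was 35% and 13.9% with equal length and the median width. The kept share was 14.5%, 12% and 9.33% with reciprocal overlap, equal length and the median width. Single switches made up 88.1% with equal length (90.7%).

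The gained share minus that of all other regions (1.43 points) gained an interval without 0 with reciprocal overlap (2.11), equal length (11.6), the median width (3.37), 20 kb (1.91), 100 kb (3) and 1 region per cluster (2.07). Against regions between genes within 50 kb, the gained difference (-3.39) was -0.533 with equal length, 1.28 with the median width and -0.93 at 100 kb. The lost difference (1.67) was -0.859 with equal length, 3.95 at 20 kb and -4.35 at 100 kb, where regions at 50 to 100 kb join the comparison set. Beyond that construction the cause was not tested. These differences under alternatives, segments of antigen receptors counted as genes, and regions of steady width left out were added after seeing the data. No paired analysis was possible because each group has 1 list and no value per replicate, where paired means by replicate number. Calls can be paired by region across the lists, but the intervals for changes between lists do not use this pairing.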
